A study of Rattus norvegicus with 6 samples.

Results

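The enzymes described here are those that activate fatty acids, carry them into mitochondria, oxidise them there and handle the ketone bodies that the same acetyl-CoA pool feeds. Of 36 names listed, 35 were found as gene symbols in the deposited count table and 1, Acad10, was not analysed here. The symbol Acsm2 stood on 2 rows, so that there were 36 member rows among 31368 in the table, and all 36 passed the filter on low counts that left 15371 genes for testing. The study sequenced renal tissue RNA from 8-week-old male rats of the Sprague-Dawley strain, all with the WT genotype. The controls are 3 Sham libraries, and 3 CKD libraries come from a model of chronic kidney disease. The procedure behind the model, and the time from it to sampling, are not given in the sources used here. Whether each library is a separate animal is not labelled. The p-values therefore measure the spread between these libraries, which may be technical.

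Fatty acids enter the pathway once an acyl-CoA synthetase has joined them to coenzyme A. Long chains then cross into the mitochondrion as carnitine esters, a step set by carnitine palmitoyltransferase 1 and restrained by malonyl-CoA, and each round of beta-oxidation removes acetyl-CoA through a dehydrogenase, a hydratase, another dehydrogenase and a thiolase. The proximal tubule of the kidney, which reabsorbs most of the filtered load and uses little glucose as fuel, is known for its dependence on this pathway.

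Sham 2 stood apart from the other libraries, and this touches every result below. Mitochondrially encoded genes took 37.9% of its counts against 14.4% in Sham 1, 15.3% in Sham 3 and 8.83% to 10.8% in CKD. A sum over 15 proximal tubule markers came to 8621 CPM (counts scaled to a common library size, corrected for composition) in Sham 2, against 28430 and 24929 in Sham 1 and Sham 3 and 13088, 13148 and 18538 in CKD 1, 2 and 3. A sum over 8 distal tubule and collecting duct markers was 5838 CPM in Sham 2, 840 and 2018 in Sham 1 and Sham 3, and 1124 to 1206 in CKD. Among the 36 members Sham 2 was the lowest of the 3 Sham libraries in 27. In bulk tissue, fewer cells of a type and less RNA per cell cannot be told apart.

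As a group the members stood lower in CKD. The log2 fold change (CKD minus Sham) was negative in 34 of 36, beside 50.5% of all genes tested, and its median was -0.80, beside -0.01 over all genes. By edgeR's quasi-likelihood test, with p adjusted over all genes and a threshold of 0.05, 1 of the 36 was called, beside 3.82% of all genes. That member, Eci1, fell (1.15% of all genes were called lower), and 0 rose (2.67% were called higher). Without the adjustment 16 of the 36 had p under 0.05, all 16 lower, beside 10.3% of all genes called lower at that level. That excess depended on the scaling. With library totals alone, without composition factors, 7 of the 36 had an unadjusted p under 0.05 in either direction, beside 33.9% of all genes. In 15 of the 36, or 41.7%, every CKD library lay below every Sham library, beside 12.4% of all genes, and in 0 did every CKD library lie above (18.8% of all genes). Without Sham 2 the groups were apart in 26 members on the lower side (20.7% of all genes), with a median of -0.98. In that fit edgeR called 0 members and 2 genes in all, and 27 members had an unadjusted p under 0.05, beside 27.0% of all genes.

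**Figure D1:**
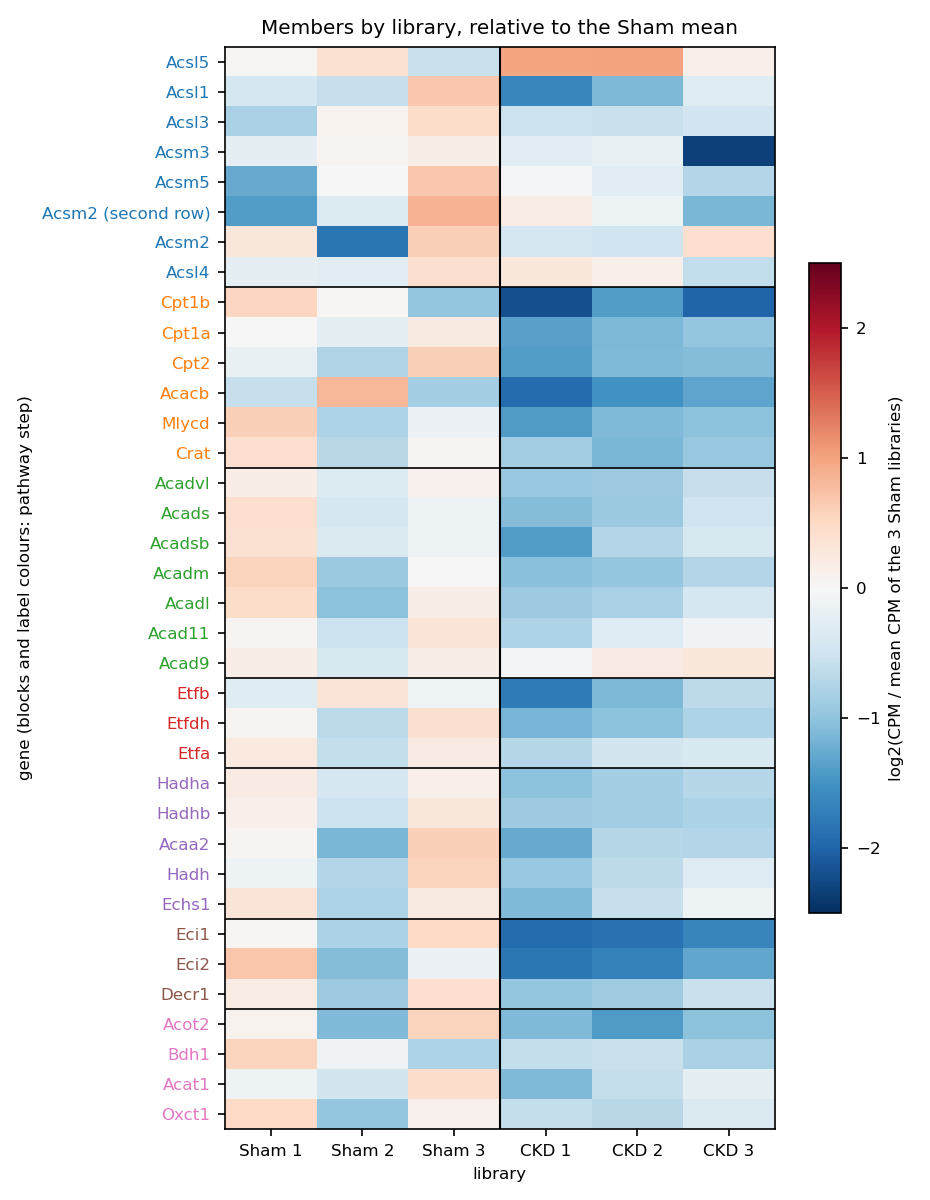
Heat map of the 36 member rows (vertical axis, in blocks by pathway step) in the 6 libraries (horizontal axis), coloured by log2 of the CPM over the mean CPM of the 3 Sham libraries. The import block and Eci1 and Eci2 are blue in all 3 CKD libraries, Sham 2 is pale blue in most blocks, and Acsl5 is red in CKD 1 and CKD 2.

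The promoters of 4 members are shown first because they belong to the enoyl-CoA isomerases Eci1 and Eci2, which stood among the lowest members, and to Hadha and Hadhb, the subunits of one enzyme, whose fold changes were nearly equal. Windows run from 250 bases before to 50 after the start site and come from RefSeq with the build GRCr8, where 31 of the 35 symbols matched. Capitals mark the hexamer AGGTCA, the core of many nuclear receptor elements, and the GC box GGGCGG, on either strand.
Eci1 (chr10:13961000-13961299, + strand): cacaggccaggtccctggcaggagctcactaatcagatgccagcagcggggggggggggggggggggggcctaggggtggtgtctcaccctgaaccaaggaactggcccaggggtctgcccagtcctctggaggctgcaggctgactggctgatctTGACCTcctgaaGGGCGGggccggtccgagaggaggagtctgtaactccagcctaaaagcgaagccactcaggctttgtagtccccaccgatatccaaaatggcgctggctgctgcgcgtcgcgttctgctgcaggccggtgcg
Eci2 (chr17:30075516-30075815, + strand): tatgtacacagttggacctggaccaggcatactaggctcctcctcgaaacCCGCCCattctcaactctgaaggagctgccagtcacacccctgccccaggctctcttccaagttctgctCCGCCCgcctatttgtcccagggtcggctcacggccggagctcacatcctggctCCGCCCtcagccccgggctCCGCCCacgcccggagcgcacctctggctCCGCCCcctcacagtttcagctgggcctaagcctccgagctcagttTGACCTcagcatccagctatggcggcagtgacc
Hadha (chr6:31907551-31907850, + strand): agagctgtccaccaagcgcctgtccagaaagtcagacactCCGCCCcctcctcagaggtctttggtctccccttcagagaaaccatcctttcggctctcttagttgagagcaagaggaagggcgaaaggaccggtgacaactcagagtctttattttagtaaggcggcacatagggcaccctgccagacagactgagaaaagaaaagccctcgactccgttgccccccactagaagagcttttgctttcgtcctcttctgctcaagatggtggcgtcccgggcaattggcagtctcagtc
Hadhb (chr6:31907451-31907750, - strand): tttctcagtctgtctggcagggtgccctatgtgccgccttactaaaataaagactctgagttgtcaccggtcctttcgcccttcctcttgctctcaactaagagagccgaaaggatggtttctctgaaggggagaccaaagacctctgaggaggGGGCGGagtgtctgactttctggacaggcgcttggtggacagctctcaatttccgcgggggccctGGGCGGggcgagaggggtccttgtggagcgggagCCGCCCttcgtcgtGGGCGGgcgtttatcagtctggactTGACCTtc

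The AGGTCA hexamer stood in the windows of 9 of 31 members (29.0%), beside 16.2% of all 33469 windows of this length and 14.2% of the 21851 of protein-coding genes. In the Eci1 window it lay 94 bases before the start site, read on the opposite strand as TGACCT. The GC box was found in 20 of 31 members (64.5%), beside 33.1% of all windows and 41.8% of the coding ones. A relaxed direct repeat, AGGNCANAGGNCA, the layout bound by PPAR receptors, matched in 0 of 31 members (0.415% of all windows), and TCAAGGTCA, an extended element that contains AGGTCA, also in 0 (0.433%). Both strands were searched. Such a match is a description of letters in this window only. Hadha and Hadhb lie head to head on chromosome 6, with start sites 301 bases apart in RefSeq, and their windows share 200 bases on opposite strands. In the deposited coordinates 3086 bases lie between the end of Hadhb and the start of Hadha, so the shared windows hold for RefSeq only.

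Unsaturated fatty acids need auxiliary enzymes that move or remove double bonds before the main cycle can proceed. Eci1 encodes a mitochondrial enoyl-CoA isomerase, and in the coordinates of the deposited table (build uncertain) it lies on chromosome 10 from 13456563 to 13470061. It stood at 348, 198 and 484 CPM in Sham 1, 2 and 3 and at 90.5, 93.9 and 109 CPM in CKD 1, 2 and 3. The CKD libraries were close to each other and well below the lowest control, which was Sham 2. Eci1 fell by 1.81 ± 0.35 on the log2 scale (SE, edgeR adjusted p = 0.0415). Per kilobase of gene length it was the member with rank 2 in Sham, at 281 CPM per kb, and had rank 12 in CKD, at 79.9 CPM per kb. Over 14 alternative settings that value lay between -2.12 and -1.40. Its call was lost in 7 of the 14, among them the fits without Sham 2 (edgeR adjusted p = 0.0552), Sham 3 (0.107), CKD 1 (0.187), CKD 2 (0.194) or CKD 3 (0.0822), and in limma-voom (adjusted p = 0.0524).

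Eci2, the related isomerase found in peroxisomes and mitochondria, had 299.9, 87.1 and 166 CPM in Sham and 53.0, 57.3 and 74.6 CPM in CKD. The groups were apart, with Sham 2 again nearest to CKD. At -1.58 ± 0.43 on the log2 scale it did not pass (edgeR adjusted p = 0.0806). Decr1, the dienoyl-CoA reductase of the same branch, had means of 169 ± 70.6 CPM in Sham and 97.0 ± 14.8 CPM in CKD (SD, n = 3 libraries per group), and its groups overlapped through Sham 2.

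**Figure D2:**
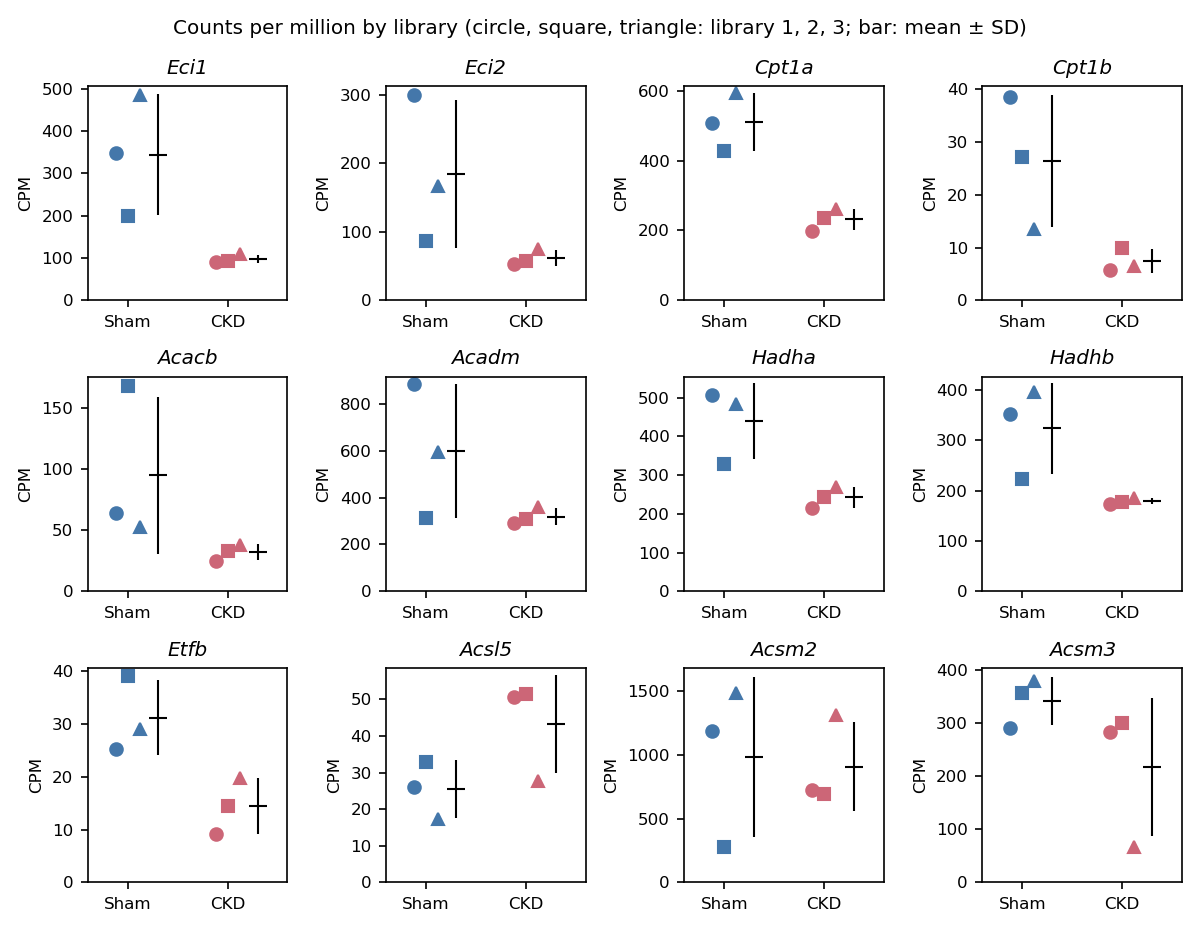
CPM (vertical axes, from 0) of 12 members in the 3 Sham and 3 CKD libraries, with 1 symbol per library and a bar for the mean ± SD. Eci1, Eci2, Cpt1a, Cpt1b, Acacb, Hadha, Hadhb and Etfb have every CKD point below every Sham point, Acadm overlaps through Sham 2, Acsm2 overlaps widely, and CKD 3 is the low point of Acsm3.

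The import step was the one in which all members had the groups apart in CPM. All 6 genes of carnitine import and its control had CKD below Sham in every library, beside 12.4% of all genes. All 6 had an unadjusted p under 0.05 (10.3% of all genes were lower at that level). Of the 6, 0 passed the adjusted threshold, beside 3.82% of all genes (edgeR adjusted p from 0.0562 to 0.112). Their median log2 fold change was -1.18. Divided by the proximal tubule marker sum, as described below, Mlycd and Crat stayed apart, while Cpt1a, Cpt1b, Cpt2 and Acacb did not. Cpt1a encodes the liver-type carnitine palmitoyltransferase 1, which is the form of most epithelia and lies in the table on chromosome 1 from 200565613 to 200627055. It had 506, 428 and 593 CPM in Sham and 199, 234 and 261 CPM in CKD. Among the members of this step its Sham libraries were the most alike, and the means were 509 ± 82.6 CPM in Sham and 231 ± 31.3 CPM in CKD. The difference missed the threshold narrowly, at -1.14 ± 0.27 on the log2 scale (edgeR adjusted p = 0.0574). Cpt1a passed in 2 of 14 alternatives, without Sham 1 (edgeR adjusted p = 0.0442) and in DESeq2 (adjusted p = 0.000138), and over all of them the adjusted p reached 0.267, without CKD 1.

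Cpt1b, the muscle-type form, was scarce in these kidneys, with 38.5, 27.2 and 13.5 CPM in Sham and 5.79, 9.99 and 6.61 CPM in CKD. Its lowest control, Sham 3, was above every CKD library. The log2 fold change was -1.82 ± 0.42, the lowest of all members (edgeR adjusted p = 0.0562). It passed in 2 of 14 alternatives, with no filter on low counts (edgeR adjusted p = 0.0396) and in DESeq2 (adjusted p = 0.00111), and the adjusted p reached 0.222, without CKD 1. As a share of Cpt1a plus Cpt1b per kb it was 10.1%, 8.61% and 3.26% in Sham and 4.13%, 5.93% and 3.61% in CKD. The shares overlapped, and an exact two-sided permutation test gave p = 0.4, where 3 libraries against 3 can give no p below 0.1. Of 6 skeletal muscle markers the summed level was at most 2.59 CPM in any library. The 5 brown adipocyte markers summed to 48.3 to 65.1 CPM in Sham and 45.9 to 57.4 CPM in CKD, most of it Ppargc1a, with the defining Ucp1 at 0 counts in all 6. Among them Dio2 had 2.20, 2.03 and 13.6 CPM in Sham and 1.25, 1.44 and 0.102 CPM in CKD, apart in CPM. Its counts were few, at 33, 29 and 193 in Sham and 26, 29 and 2 in CKD (edgeR adjusted p = 0.177). Sham 2 and CKD 2 had equal counts of it. Cidea overlapped between the groups. White adipocyte markers, 8 in number, summed to 162, 61.5 and 33.4 CPM in Sham and 28.8, 28.4 and 39.3 CPM in CKD. That sum overlapped between the groups, and its order in Sham was that of Cpt1b. Of the 5 white adipocyte markers tested, 4 had a negative fold change and 1 was called higher. The part of these cell types in the level of Cpt1b was not tested.

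Cpt2, the inner-membrane partner that turns carnitine esters back into acyl-CoA, had 70.9, 47.9 and 122 CPM in Sham and 30.4, 37.5 and 37.8 CPM in CKD (log2 difference -1.19 ± 0.34, edgeR adjusted p = 0.0881). The ratio of Cpt1a to Cpt2 per kb was 4.01, 5.02 and 2.74 in Sham and 3.67, 3.51 and 3.88 in CKD, so that both transferases had nearly the same mean balance in the groups. Crat, which exchanges short acyl groups with carnitine, had means of 272 ± 97.5 and 138 ± 12.9 CPM.

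Malonyl-CoA, the inhibitor of import, is made by Acacb at the mitochondrial surface and removed by Mlycd. Acacb had 63.9, 169 and 52.5 CPM in Sham and 25.0, 33.2 and 37.9 CPM in CKD, and Mlycd had 206, 79.6 and 122 CPM and 51.0, 63.0 and 67.0 CPM. The enzyme that makes the inhibitor and the one that removes it were thus both lower in every CKD library. For Acacb the high control was Sham 2, against the order seen in most members, and the difference of -1.57 on the log2 scale became -0.90 when that library was left out. For Mlycd the difference was -1.17 ± 0.35 (edgeR adjusted p = 0.0971). The ratio of Acacb to Mlycd per kb was 0.502 in Sham 2, 0.0738 and 0.102 in Sham 1 and Sham 3, and 0.116, 0.125 and 0.134 in CKD.

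Of 8 rows for fatty acid activation, 7 had a negative fold change, beside 50.5% of all genes. All 8 had overlapping groups, and 0 were called, beside 3.82% of all genes. Groups that lay apart were not the rule among all genes either (12.4% with CKD lower and 18.8% with CKD higher). Acsl1, the main long-chain synthetase of oxidative tissues, had 268, 246 and 584 CPM in Sham and 118, 168 and 298 CPM in CKD (log2 difference -0.91 ± 0.47, edgeR adjusted p = 0.28). Acsl5, another long-chain synthetase of mitochondria and the endoplasmic reticulum, went the other way, with 26.1, 33.0 and 17.2 CPM in Sham and 50.6, 51.3 and 27.8 CPM in CKD. Its high values were those of CKD 1 and CKD 2, while CKD 3 lay among the controls. The log2 fold change of Acsl5 was 0.77 ± 0.33 (edgeR adjusted p = 0.214), and with scaling by library totals alone it was 1.20 and passed (edgeR adjusted p = 0.0491). Macrophage markers, 8 in number, summed to 136 to 369 CPM in Sham and to 1178, 1447 and 594 CPM in CKD 1, 2 and 3, with CKD 3 the lowest of the CKD libraries as for Acsl5. Of these 8 markers 4 rose and 0 fell, as did 2 of 6 lymphocyte markers tested and 1 of 8 fibroblast and mural cell markers. The part of those cells in the level of Acsl5 was not tested. Acsl4, which prefers arachidonic acid, had means of 112 ± 31.1 and 110 ± 32.7 CPM (log2 fold change -0.03 ± 0.31), and Acsl3, of lipid droplets and the endoplasmic reticulum, 75.4 ± 30.6 and 52.4 ± 1.73 CPM.

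The medium-chain synthetases of the Acsm family, which also join xenobiotic acids to coenzyme A, lie in a cluster of 4 rows on chromosome 1 from 173863041 to 174160184 in the deposited table. Their groups overlapped, and the order of the libraries differed between rows. The abundant Acsm2 row, the member with rank 1 per kb in both groups, had 1190 CPM in Sham 1, 277 in Sham 2 and 1484 in Sham 3, against 722, 694 and 1308 CPM in CKD. Acsm3 had 290.4, 356 and 378 CPM in Sham and 283, 299 and 67.5 CPM in CKD. CKD 3 was thus the highest CKD library for Acsm2 and the lowest of all libraries for Acsm3. The other row with the symbol Acsm2, 4936 bases long and described in the table by its likeness to mouse Acsm1, had means of 43.2 ± 32.3 and 36.2 ± 15.3 CPM, and Acsm5 of 11.5 ± 6.78 and 9.22 ± 2.09 CPM. Reads can be shared among these close relatives, and between Acot2 and its neighbour Acot1, so their counts are uncertain.

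**Figure D3:**
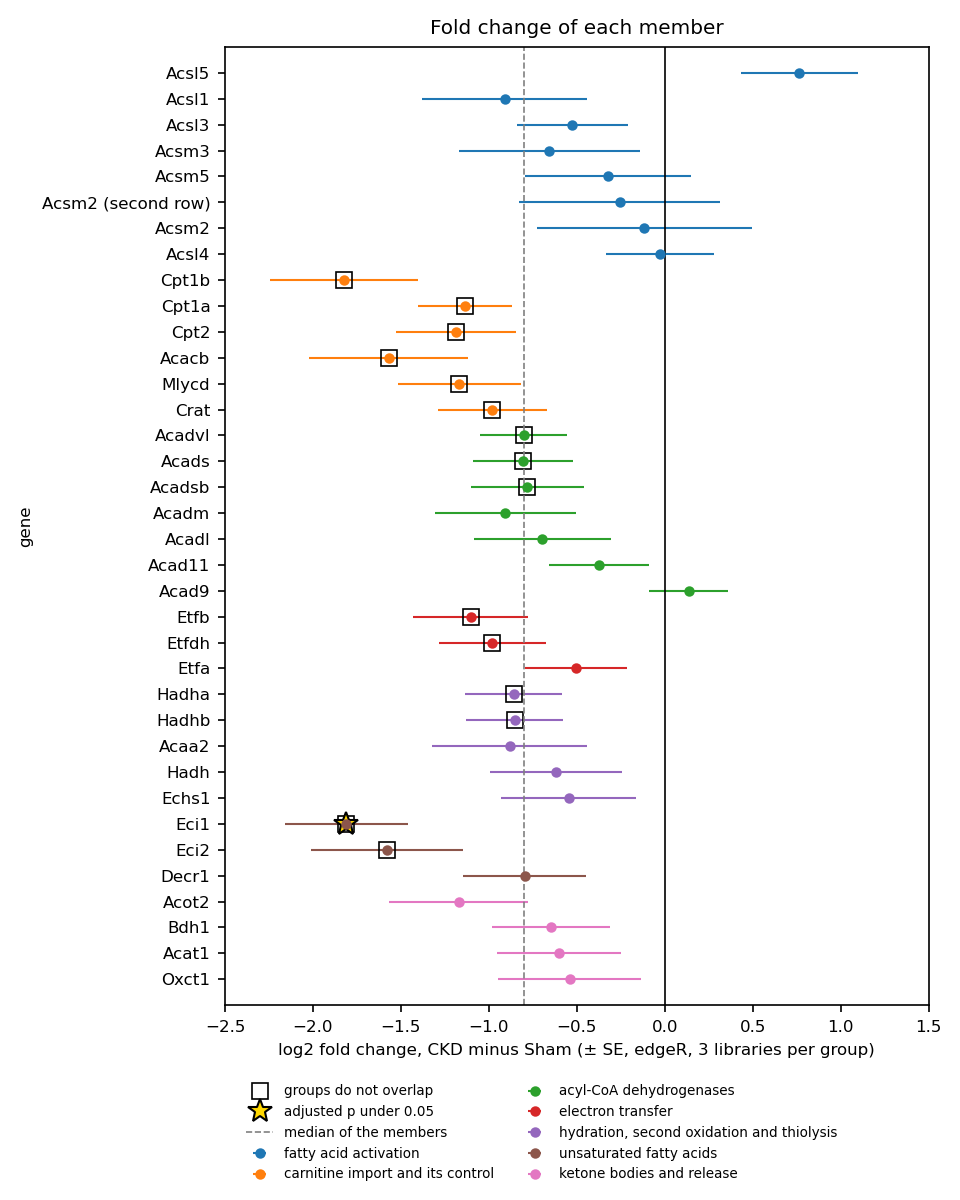
Log2 fold change (CKD minus Sham, horizontal axis) with its standard error for each member (vertical axis), coloured by step, with squares where the groups do not overlap and a star where the adjusted p is under 0.05. The star is Eci1 at -1.81, the 15 squares are all left of 0, and Acsl5 is the row farthest to the right, at 0.77.

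The acyl-CoA dehydrogenases open each round of the cycle and are matched to chain length. Very-long-chain Acadvl had 297, 208 and 286 CPM in Sham and 137, 139.9 and 177 CPM in CKD, without overlap (log2 difference -0.80 ± 0.25, edgeR adjusted p = 0.104). Medium-chain Acadm had 883, 312 and 595 CPM in Sham and 290.1, 307 and 359 CPM in CKD. Its overlap came from Sham 2, the control at the level of CKD 2 (log2 difference -0.91 ± 0.40, edgeR adjusted p = 0.219). Long-chain Acadl had 361, 128 and 294 CPM in Sham and 139.8, 148 and 196 CPM in CKD, and here Sham 2 was the lowest of all 6 libraries. Short-chain Acads had a log2 fold change of -0.81 ± 0.28. The log2 fold changes of the 4 chain-length classes thus lay between -0.91 and -0.70, closer to each other than their standard errors. Acadsb, which acts on branched short chains, had one of -0.78 ± 0.32.

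Acad9 and Acad11 stood nearer to 0 than the rest of this family. Acad9, which serves in the assembly of respiratory complex I as well as in oxidation, had 44.0, 29.8 and 43.8 CPM in Sham and 37.2, 45.2 and 46.9 CPM in CKD. The groups overlapped, and the difference of 0.14 ± 0.23 on the log2 scale became -0.07 when Sham 2 was left out. Acad11, an enzyme of long and very long chains, had means of 97.4 ± 27.7 and 75.3 ± 17.1 CPM (log2 fold change -0.37, or 0.04 with library totals alone).

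Electrons from the dehydrogenases pass through the electron transfer flavoprotein, made of Etfa and Etfb, to its membrane oxidoreductase Etfdh. Etfb had 25.3, 39.1 and 29.1 CPM in Sham and 9.26, 14.4 and 19.8 CPM in CKD (log2 difference -1.10 ± 0.33, edgeR adjusted p = 0.0943). Its partner Etfa had 309.9, 172 and 299 CPM in Sham and 159.7, 190.3 and 199.9 CPM in CKD (-0.51 ± 0.29, edgeR adjusted p = 0.329). Etfb had Sham 2 as its highest control, and Etfa had it as its lowest. The ratio of Etfa to Etfb per kb was accordingly 1.77 in Sham 2, 4.92 and 4.14 in Sham 1 and Sham 3 and 6.94, 5.31 and 4.06 in CKD. Etfdh had means of 205 ± 71.2 and 104 ± 14.5 CPM, with the groups apart (log2 fold change -0.98 ± 0.30).

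The remaining reactions of the cycle are run by the trifunctional protein on long chains and by single enzymes on shorter ones. Hadha, its alpha subunit, had 508, 328 and 483 CPM in Sham and 216, 242 and 268 CPM in CKD. Hadhb, the beta subunit with the thiolase, had 351, 223 and 396 CPM in Sham and 173, 178 and 186 CPM in CKD. Both had every CKD library below every Sham library, with log2 fold changes of -0.86 ± 0.28 and -0.85 ± 0.28 (edgeR adjusted p = 0.114 and 0.118). The ratio of Hadha to Hadhb per kb lay between 0.964 and 1.16 in all 6 libraries, the narrowest of the 6 ratios examined. These are the genes whose RefSeq start-site windows overlap above, and a link between the windows and the ratio was not tested. The single enzymes for shorter chains overlapped between groups. Acaa2, the mitochondrial thiolase, had 451, 197 and 649 CPM in Sham and 181, 264 and 259 CPM in CKD (-0.88 ± 0.44, edgeR adjusted p = 0.267). Hadh, the hydroxyacyl-CoA dehydrogenase, and Echs1, the short-chain hydratase, had log2 fold changes of -0.62 ± 0.37 and -0.55 ± 0.38.

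Ketone bodies are made from and returned to acetyl-CoA, and the kidney both uses and, under fasting, may make them. Oxct1, which activates acetoacetate for use, had 1156, 422 and 887 CPM in Sham and 546, 505 and 643 CPM in CKD (-0.54 ± 0.41, edgeR adjusted p = 0.46). Bdh1, which interconverts hydroxybutyrate and acetoacetate, had 49.3, 31.2 and 19.6 CPM in Sham and 22.0, 22.8 and 19.1 CPM in CKD. Both overlapped between groups, through Sham 2 for Oxct1 and Sham 3 for Bdh1. Acat1, the acetoacetyl-CoA thiolase, had means of 487 ± 156 and 321 ± 94.1 CPM. Acot2, a mitochondrial thioesterase that frees long-chain acids, had 115, 49.7 and 158 CPM in Sham and 49.9, 40.0 and 52.9 CPM in CKD. The overlap was narrow, since Sham 2 lay between CKD 2 and CKD 1 (log2 difference -1.17 ± 0.40, edgeR adjusted p = 0.128).

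The 6 ratios of paired members overlapped between the groups when all libraries were used. For Cpt1a to Cpt2, Oxct1 to Bdh1, Hadha to Hadhb, Etfa to Etfb, Acacb to Mlycd and Acadl to Acadvl the mean log2 ratio moved by -0.05, 0.12, -0.03, 0.69, -0.32 and 0.21 (CKD minus Sham). Exact two-sided permutation tests gave p = 0.8, 0.9, 0.8, 0.3, 1.0 and 0.8, and an adjusted p = 1.0 for each over the 6. With 3 libraries against 3 no p below 0.1 was possible, so these tests could not have passed and do not show that the balances were alike. In all 6 ratios the SD over the Sham libraries exceeded that over CKD, with 1.48 against 0.10 for Acacb to Mlycd, 0.79 against 0.39 for Etfa to Etfb and 0.51 against 0.0628 for Acadl to Acadvl. Sham 2 carried much of that spread in these 3 ratios. Without it the shift of Acacb to Mlycd turned to 0.52, with both remaining Sham libraries below all of CKD, that of Etfa to Etfb became 0.23 and that of Acadl to Acadvl -0.08.

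Set against tubular markers of the same library, the members as a sum did not separate the groups. Their summed CPM was 10529, 5781 and 11319 in Sham and 4937, 5426 and 6608 in CKD, without overlap but with Sham 2 close to CKD. The composition factors behind the CPM differed by group, at 0.837 to 0.893 in Sham and 1.13 to 1.19 in CKD. Without these factors the members took 0.907%, 0.483% and 1.01% of all counts in Sham. In CKD they took 0.586%, 0.624% and 0.748%, so that the groups overlapped, with Sham 2 the lowest library. Divided by the sum of the 15 proximal tubule markers, the summed CPM came to 37.0%, 67.1% and 45.4% in Sham and 37.7%, 41.3% and 35.6% in CKD. Member by member, 7 of 36 had every CKD library below every Sham library on that scale, beside 2.36% of all genes. Of the 15 apart in CPM, 4 (Mlycd, Crat, Eci1 and Eci2) remained so and 11 did not, while Acadm, Acadl and Acot2 were apart on the divided scale and not in CPM. Eci1 stood at 1.23%, 2.30% and 1.94% of the marker sum in Sham and at 0.691%, 0.714% and 0.590% in CKD. Of these 15 markers 9 had a negative fold change and 0 passed, with a median of -0.45. How far the tubular content of the samples enters the members' values was not tested beyond this division, which was chosen after the data were seen.

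**Figure D4:**
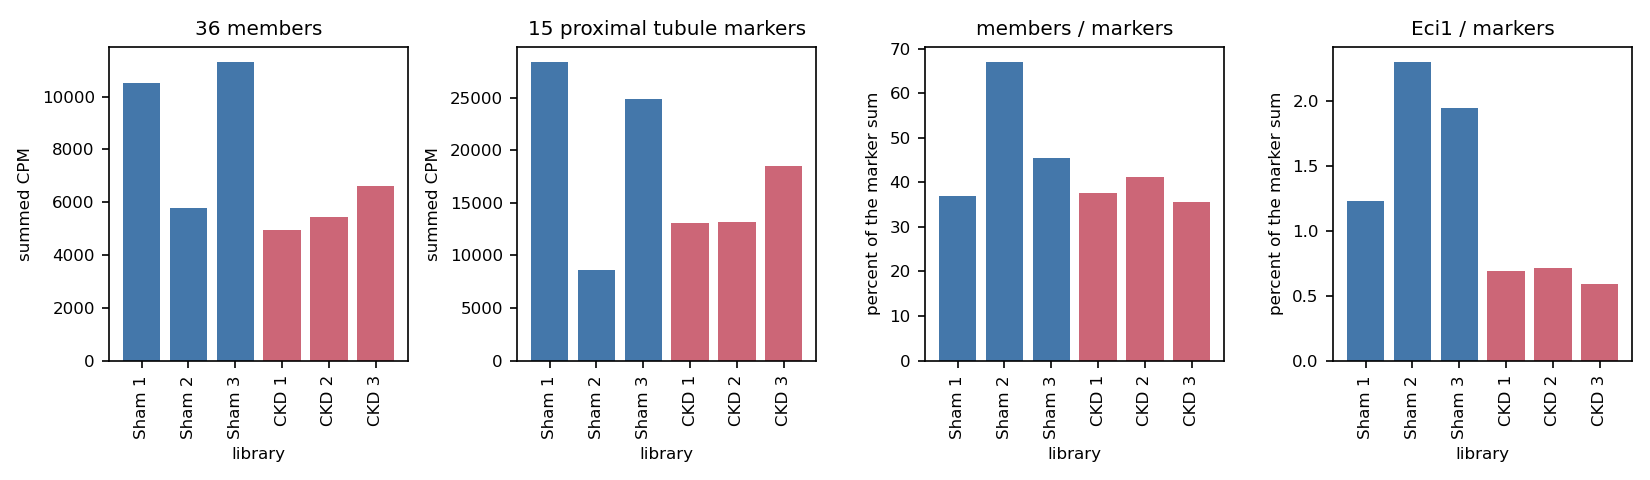
Bars for each library (horizontal axes; blue Sham, red CKD; 1 bar per library, so no error bars) of the summed CPM of the 36 members, the summed CPM of 15 proximal tubule markers, the members as a percent of those markers, and Eci1 as a percent of them. The members' share overlaps between groups (35.6% to 67.1%), while Eci1 is at most 0.714% in CKD and at least 1.23% in Sham.

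Of 23 nuclear genes of the respiratory chain, listed for comparison, 0 were called by edgeR, beside 3.82% of all genes. In 22 the fold change was negative, with a median of -0.50, and in 12 every CKD library lay below every Sham library, beside 12.4% of all genes. Relative to the summed CPM of these 23 genes, the members came to 74.7%, 69.7% and 91.2% in Sham and to 66.9%, 64.4% and 69.6% in CKD, with Sham 2 and CKD 3 nearly equal. On that scale 11 of 36 members still had CKD below Sham throughout, beside 3.08% of all genes: Cpt1a, Cpt2, Acacb, Mlycd, Crat, Acadvl, Etfdh, Hadha, Hadhb, Eci1 and Eci2. Acad9 was above Sham throughout, at 0.493% to 0.537% of the respiratory chain sum in CKD and 0.312% to 0.360% in Sham (30.7% of all genes were above on that scale).

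Other genes of fatty acid use were taken from a list of 36 names, of which 32 were tested. Of the 32, 24 had a negative fold change, the median was -0.33, 1 fell and 0 rose, beside 1.15% and 2.67% of all genes. The gene that fell was Pdk4, the kinase that restrains pyruvate dehydrogenase during fatty acid use, with 262, 448 and 359 CPM in Sham and 13.6, 17.3 and 18.7 CPM in CKD. Every CKD library was far below every control, and the log2 difference was -4.43 ± 0.31 (SE; edgeR adjusted p = 0.0109, against 0.148 without CKD 1 and 0.142 without CKD 2, where the call was lost). Slc25a20, the carrier that brings acylcarnitines across the inner membrane between Cpt1 and Cpt2, had 106, 61.5 and 94.0 CPM in Sham and 44.2, 46.2 and 47.7 CPM in CKD. It thus had the same separation of groups as the import genes (log2 difference -0.92 ± 0.24, edgeR adjusted p = 0.0717).

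Ppara and Ppargc1a, regulators known for driving these enzymes, did not separate the groups. Ppara, the nuclear receptor that binds fatty acids, had 24.8, 8.38 and 50.5 CPM in Sham and 16.8, 25.5 and 39.8 CPM in CKD, so that its spread within each group exceeded the difference of the means (log2 fold change -0.03 ± 0.60). Ppargc1a, the coactivator of mitochondrial biogenesis, had 41.6, 43.8 and 49.5 CPM in Sham and 41.6, 46.4 and 54.3 CPM in CKD (log2 difference 0.08 ± 0.19, edgeR adjusted p = 0.845). Under alternative settings the log2 fold change of Ppara ran from -0.49 to 0.67 and that of Ppargc1a from -0.03 to 0.49. These values do not show that the transcripts were equal.

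**Figure D5:**
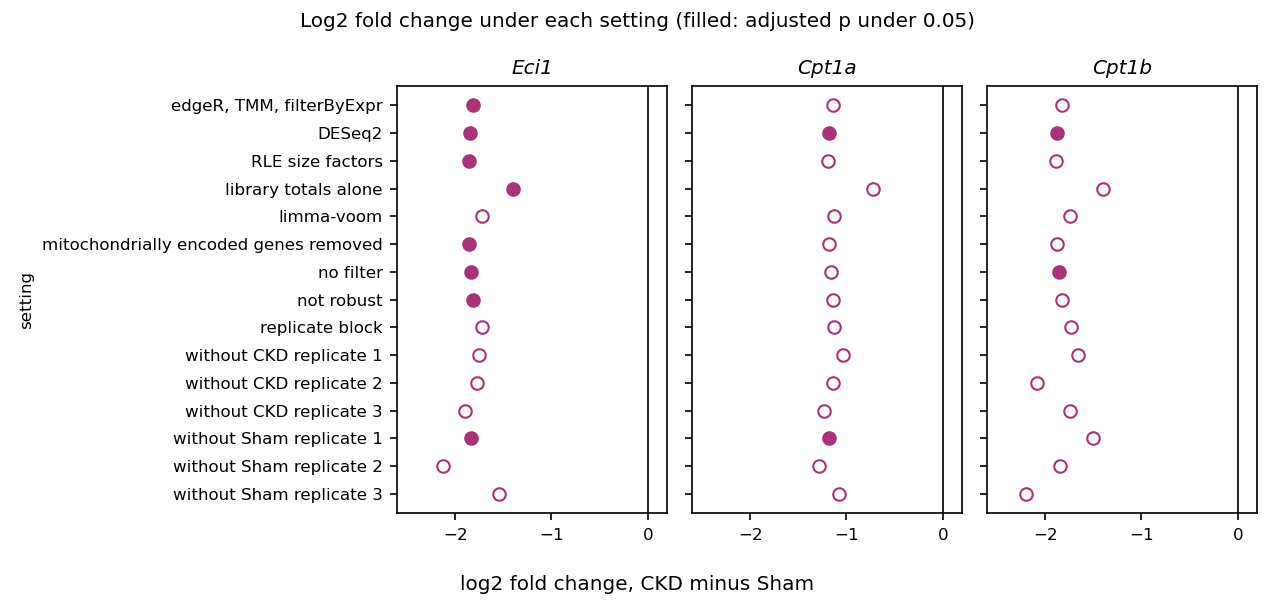
Log2 fold change (CKD minus Sham, horizontal axes) of Eci1, Cpt1a and Cpt1b under the main setting and 14 alternatives (vertical axis), filled where the adjusted p is under 0.05. All points lie left of 0, Eci1 is filled in the main setting and 7 alternatives, and Cpt1a and Cpt1b are each filled in 2 alternatives.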

How the data were processed

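RNA of renal tissue was sequenced in 6 libraries, 3 Sham and 3 CKD. Per the labels' protocols, TRIzol and a VAHTS library kit were used. The table the authors deposited holds raw, unnormalized counts of each gene. The submitters' processing notes name fastp 0.20.1, HISAT2 2.1.0, HTSeq 0.11.2 and the build Rnor_6.0, with no role or order. Whether counting used strand is not stated, so reads of overlapping genes cannot be told apart. Deposited coordinates reach 260398790 on chromosome 1 and their build is uncertain; gene lengths are the deposited ones. Totals ran from 15918035 to 17503644 counts per library, and 0 columns belonged to other series.

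Genes were kept by filterByExpr (minimum count 10, total 15). The test was edgeR's quasi-likelihood test (edgeR 4.0.16, limma 3.58.1, R 4.3.3) with TMM factors, robust empirical Bayes and the group as its only term, adjusted by Benjamini-Hochberg over 15371 genes. CPM are counts over the TMM-scaled library size. It was tested on simulated data. Alternatives were other composition factors, filters and tools (DESeq2 1.42.0, limma-voom), removal of mitochondrially encoded genes, a replicate block and each library left out. Division by marker sums was added after seeing the data.

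The members, the lists and the steps were chosen with earlier results of these data known. All members are named; values per library are given for those past the threshold, those with the smallest p or largest fold change of a step, and those in a ratio, and for Slc25a20, Ppara, Ppargc1a and Pdk4 among the other genes; 1 other gene that the rule names is not reported here. Windows of Eci2, Hadha and Hadhb, Acsl3, Acsl4, the Acsm rows, Acad9 and other members beyond this rule were described after their values were seen. The same holds for Acaca among the other genes. Results per list of markers are in sums of CPM, given below as the range in Sham and then in CKD. Of 8 lymphocyte names 7 had a row, with sums of 6.76 to 8.66 and 23.0 to 39.5. For 8 fibroblast names they were 124 to 492 and 795 to 1287, and for 6 endothelial names 389 to 497 and 330.2 to 429. For 8 white adipocyte names they were 33.4 to 162 and 28.4 to 39.3, and for 5 hepatocyte names 1.73 to 4.57 and 10.6 to 48.6. Of 5 adrenal names 4 had a row, with sums of 5.77 to 12.9 and 1.50 to 2.87 CPM. Thick ascending limb markers, 5 in number, summed to 3411 to 9637 CPM in Sham and 1545 to 3831 CPM in CKD.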

Additional observations from a re-analysis of the deposited data

How the results depend on the processing

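Leaving out 1 library gave 0 to 789 genes called higher and 0 to 922 called lower, against 411 and 176, and 0 to 3 members called lower against 1 (0 higher throughout); the 3, without Sham 1, were Acsl3, Cpt1a and Eci1. The members' median stayed between -0.98 and -0.70. Without CKD 1 and without CKD 2, 10 and 9 of 36 members had an unadjusted p under 0.05, beside 14.8% and 14.6% of all genes. Without any other library it was 15 to 27 members, beside 20.6% to 30.8% of all genes. With library totals alone the median of all genes moved to 0.41. In that setting 2047 of 15371 genes and 1 of 36 members (Acsl5) were called higher, and the members' median was -0.39. Without a filter 2 of 36 members were called lower, beside 248 of 21904 genes. DESeq2 called 1356 genes higher and 1084 lower of 21867 given a p-value, with 14 of 36 members lower. Limma-voom called 120 higher and 75 lower, with 0 members (16 at an unadjusted p under 0.05, beside 23.7% of all genes). The replicate block called 4 higher and 6 lower, with 0 members (17 at an unadjusted p under 0.05, beside 18.7% of all genes; Eci1 had an edgeR adjusted p = 0.0777); same-numbered libraries did not deviate together (correlations -0.21, 0.00 and -0.16), 0 of 3 Sham libraries correlated best with their own number, and the numbers were not taken as pairs. Members with every CKD library below Sham numbered 15 in CPM, beside 12.4% of all genes. They numbered 7 after division by tubule markers (2.36% of all genes) and 11 after division by respiratory chain genes (3.08%). Without Sham 2 they numbered 26 (20.7%). The share over all genes thus moved as well, so the counts are not comparable by themselves.

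With library totals alone Acsm2 had a log2 fold change of 0.28, Acsl4 0.39, Acad11 0.036, the longer Acsm2 row 0.16, Acsm5 0.0926 and Ppara 0.36. Acsm2 and Ppara were at 0.15 and 0.23 in limma-voom and at 0.13 and 0.20 with the replicate block. With 1 library left out Acsm2 ran from -0.59 to 0.26, its longer row from -0.69 to 0.44, Acsl4 from -0.20 to 0.20, Acsm5 from -0.74 to 0.11, Acad9 from -0.0657 to 0.236, Ppara from -0.49 to 0.67 and Ppargc1a from -0.0267 to 0.169. The log2 ratios ran from -0.28 to 0.15 (Cpt1a to Cpt2), -0.30 to 0.57 (Oxct1 to Bdh1), -0.11 to 0.0304 (Hadha to Hadhb), -0.86 to 0.52 (Acacb to Mlycd) and -0.0758 to 0.41 (Acadl to Acadvl). The cause was not tested.

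The scarcest members had 120 to 577 counts per library (Cpt1b) and 72 to 261 (Acsm5), and the biological coefficient of variation over all genes was 37.5%.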
